A study of Mus musculus with 28 samples.

Results

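The G1 cyclins, kinases and CDK inhibitors described here are 10 genes: Ccnd1, Ccnd2, Ccnd3, Ccne1, Cdk4, Cdk6, Cdkn1a, Cdkn1b, Cdkn2a and Cdkn2b. They were chosen by name from the 17295 genes of a deposited expression table of mouse neural stem cells, fibroblasts, and stem-cell lines that transcription factors had induced from fibroblasts. All 10 were in the table, and all 10 passed the filter on low values (a mean of at least 10 over the 28 libraries), as did 16275 genes in all.

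D-type cyclins accumulate when a cell receives growth factors and switch on the kinases Cdk4 and Cdk6, which phosphorylate the retinoblastoma protein and so free E2F factors. E2F factors raise cyclin E, and cyclin E with Cdk2 takes the cell into S phase. The INK4 inhibitors, encoded by Cdkn2a and Cdkn2b, bind Cdk4 and Cdk6, while the CIP/KIP inhibitors p21 (Cdkn1a) and p27 (Cdkn1b) bind a wider set of cyclin and kinase complexes. In mouse neural stem cells Cdkn2a is known to be held down by the Polycomb protein Bmi1, and in cultured fibroblasts the INK4 genes are known to build up with passage.

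The libraries fell into 14 groups of 2. The cells of 10 groups were induced lines (miNSC, neural stem cells made from fibroblasts): fibroblasts carrying M2rtTA and doxycycline-inducible lentiviruses of transcription factors were kept in 1 μg/mL doxycycline for 18 days, colonies were picked at day 20, and these were grown on in medium with 10 ng/mL each of bFGF and EGF. The cocktails were B/K/M/eSox17FNV (4F), B/K/eSox17FNV (BKF), K/M/eSox17FNV (KMF) and K/eSox17FNV (KF), where eSox17FNV is an engineered form of Sox17 and the labels do not spell out B, K and M. Fibroblasts of 1.0-year Sox2-GFP mice gave a 4F line from the ear, and a 4F line (sampled at passages 18 and 8), a BKF line and a KMF line from the tail tip. Embryonic fibroblasts gave BKF and KF lines from ICR mice and BKF, KMF and KF lines from Sox2-GFP mice. The other 4 groups had no added factor and were all Sox2-GFP: neural stem cells (NSC) of 2.5-year mice at passages 2 and 5, skin fibroblasts and tail-tip fibroblasts of 2.5-year mice, and tail-tip fibroblasts of 1.0-year mice. Embryonic, ear and ICR fibroblasts were not analysed here, so only the tail-tip lines had fibroblasts of their own tissue and age beside them. Passage is labelled only for the tail-tip 4F line and NSC, so among the other lines it cannot be told apart from origin or cocktail.

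The deposited values are normalised whole numbers with almost the same total in every library, 15563679 to 15571626, so depth is unknown and no counting interval can be given. Levels are compared between libraries for the same gene and never between genes, because the labels do not say whether gene length was taken out. Differences are log2 fold changes ± SE of value + 1 from limma, with p adjusted by Benjamini-Hochberg over the 16275 genes, and a gene is called at an adjusted p below 0.05. Nothing in the labels says that the 2 libraries of a line came from separate cultures or colonies, so p measures only the spread between these libraries. The labelled cell types were checked by their markers. The 12 neural stem cell marker genes summed to 80753 to 160224 in miNSC, 92817 to 143817 in NSC and 456 to 1243 in fibroblasts, with Sox1, Sox2, Hes5, Nr2e1 and Olig2 at 0 in all 6 fibroblast libraries. The 12 fibroblast marker genes summed to 735 to 5539 in miNSC, 2001 to 3241 in NSC and 236240 to 343877 in fibroblasts.

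All 10 genes were called between miNSC and fibroblasts, 3 higher (Ccnd1, Cdk4 and Cdkn1b) and 7 lower, but 76.5% of all tested genes were called there, 42.8% higher and 33.7% lower, so the count itself is no result about them. The libraries of the miNSC and fibroblasts did not overlap for 3 of the 10, Cdk4, Cdk6 and Cdkn1b (31.9% of tested genes did not overlap). Between the tail-tip lines and the 1.0-year tail-tip fibroblasts 9 were called, 2 higher and 7 lower, and 7 did not overlap, while of tested genes 66% were called, 36.7% higher and 29.4% lower, and 55% did not overlap. Between miNSC and NSC 7 were called, 3 higher and 4 lower, and 1 did not overlap (of tested genes 40.6% called, 20.9% higher and 19.7% lower, and 8.06% without overlap). Between NSC and the 2.5-year fibroblasts 6 were called, 2 higher and 4 lower, and 4 did not overlap (65.6% called, 34.4% higher and 31.2% lower, and 59.3% without overlap). These comparisons share libraries and are given side by side. With the mean of each group taken as 1 sample, 5 of the 10 calls between miNSC and fibroblasts were kept (Ccnd3, Cdk4, Cdk6, Cdkn1b and Cdkn2b, with 53% of tested genes called), and 1 of 9 between the tail-tip lines and their fibroblasts (Cdk4, with 27.2%). Between miNSC and NSC 0 of 7 were kept by limma, and 1 gene had an unadjusted p under 0.05 (0.873% of tested genes called).

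**Figure D1:**
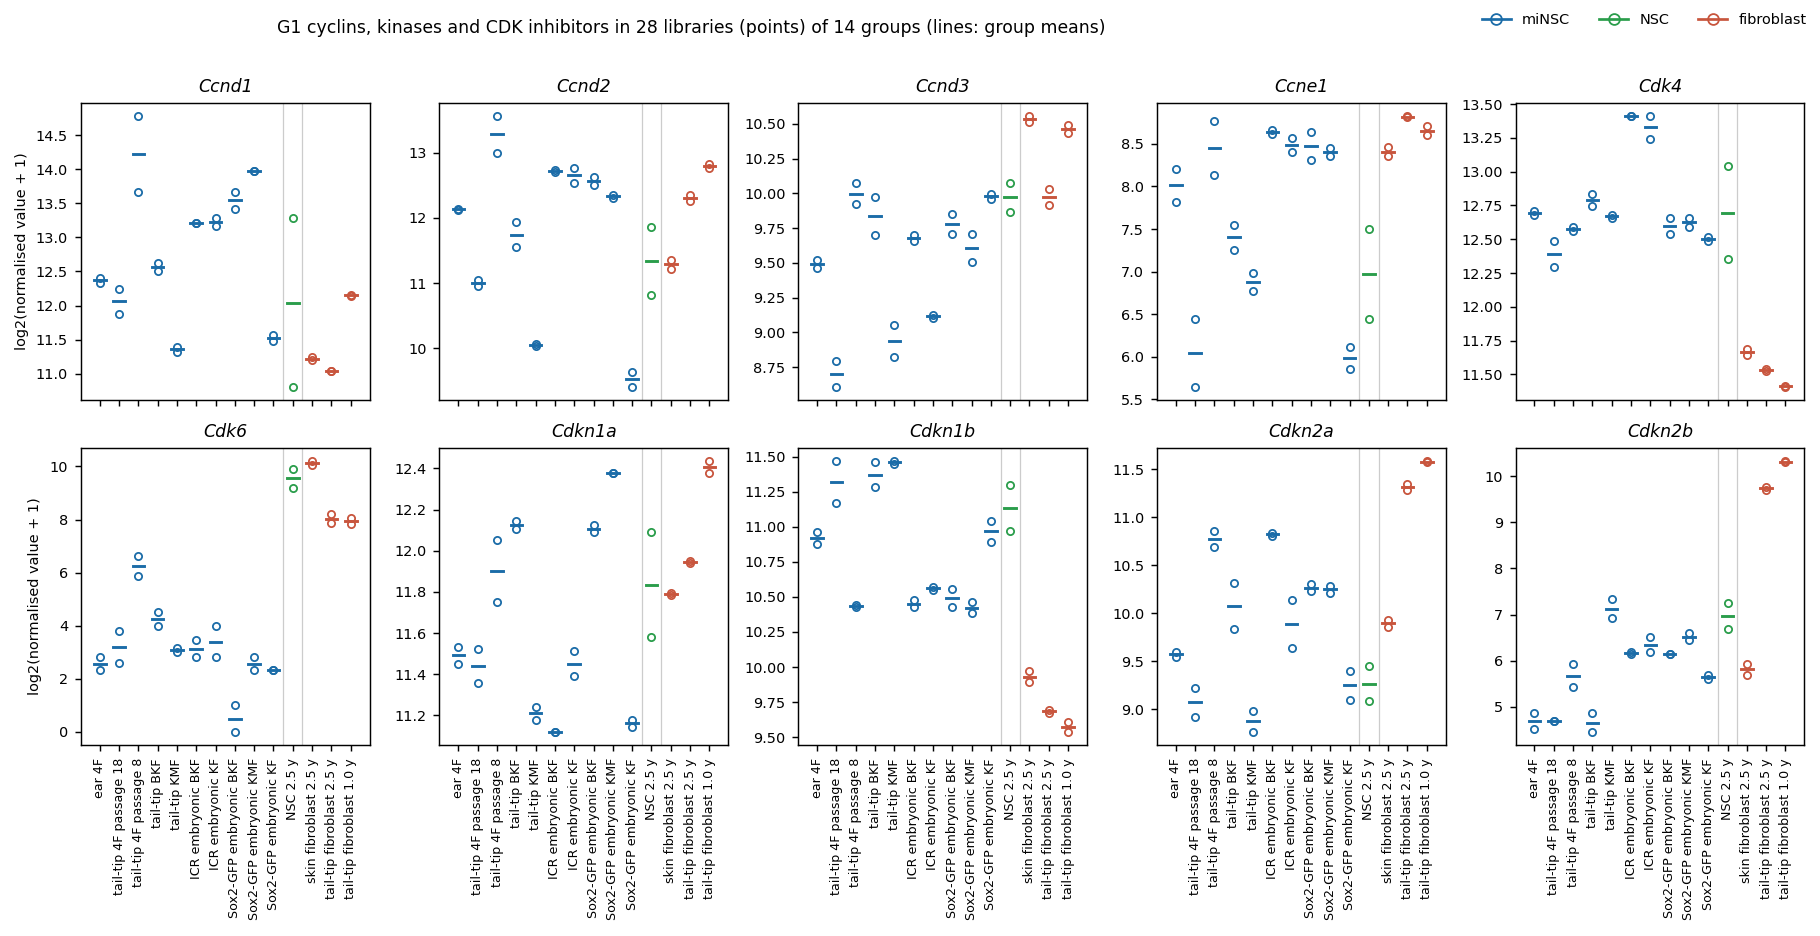
Each point is 1 library and each line a group mean, on the scale of log2(normalised value + 1), for the 10 genes over 14 groups (miNSC lines, then NSC, then fibroblasts); the vertical scale differs between panels. Cdk4 and Cdkn1b lie higher, and Cdk6 lower, in all 20 miNSC libraries than in all 6 fibroblast libraries, while Ccnd1, Ccnd2 and Ccne1 differ widely from line to line.

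Cyclin D1 (Ccnd1, chr7:144929931-144939925, minus strand, GRCm38 as for all genes here) had its lowest, median and highest values at 2568, 7733 and 28060 in the 20 miNSC libraries, at 1792 and 9950 in NSC of passages 2 and 5, and at 2106, 2390 and 4568 in the 6 fibroblast libraries. It was higher in miNSC than in fibroblasts by 1.33 ± 0.23 (adjusted p = 5.75e-05), yet the libraries overlapped, and against the 1.0-year tail-tip fibroblasts alone the difference was 0.65 (adjusted p = 0.128). Between the tail-tip lines and those fibroblasts it was 0.40 ± 0.39 (adjusted p = 0.394). The highest miNSC libraries stood far above all fibroblasts and the lowest, at 2568 and 2683, beside the skin fibroblasts.

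Cyclin D2 (Ccnd2, chr6:127125162-127152193, minus strand), known for its part in the division of adult neural progenitors, ran from 676 to 12122 in miNSC with a median of 4805, stood at 1800 and 3733 in NSC of passages 2 and 5, and ran from 2372 to 7288 in fibroblasts with a median of 5085. It was lower in miNSC than in fibroblasts by a small amount (log2 fold change -0.33 ± 0.11, adjusted p = 0.0126) and lower in the tail-tip lines than in 1.0-year tail-tip fibroblasts (-1.28 ± 0.19, adjusted p = 1.41e-05). Its libraries overlapped in both.

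Cyclin D3 (Ccnd3, chr17:47505051-47599691, plus strand), the third D-type cyclin, had a median of 819 in miNSC (389 to 1076), 1079 and 934 in NSC of passages 2 and 5, and a median of 1411 in fibroblasts (966 to 1504). It was lower in miNSC than in fibroblasts (-0.81 ± 0.05, adjusted p = 1.22e-10) and in the tail-tip lines than in 1.0-year tail-tip fibroblasts (-1.10 ± 0.08, adjusted p = 4.85e-09), where no library overlapped. Some members overlap genes of the opposite strand that are also in the table: Ccnd3 shares 361 bases with Bysl, Ccnd1 1771 with LTO1 and Cdk4 641 with Tspan31. The labels do not say whether reads were counted by strand, so reads from such partners cannot be told apart. Bysl was at 112 to 771 in miNSC and 538 to 832 in fibroblasts, LTO1 at 59 to 108 and 156 to 240, and Tspan31 at 1150 to 2092 and 1200 to 1428.

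Cyclin E1 (Ccne1, chr7:38097984-38107534, minus strand), the partner of Cdk2 at the start of S phase, ran from 49 to 437 in miNSC with a median of 287.5. It stood at 86 and 180 in NSC of passages 2 and 5, and ran from 327 to 453 in fibroblasts with a median of 402.5. It was lower in miNSC than in fibroblasts (-0.95 ± 0.14, adjusted p = 8.81e-06), and lower in NSC than in 2.5-year fibroblasts (-1.64 ± 0.26, adjusted p = 2.84e-05). Its 6 fibroblast libraries lay close together, while the miNSC libraries ran from within that range to far below it.

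The kinases differed in opposite directions between miNSC and fibroblasts. Cdk4 (chr10:127063534-127067920, plus strand) was at 5028, 6466 and 10890 (lowest, median and highest) in miNSC, at 5242 and 8417 in NSC of passages 2 and 5, and at 2716, 2960 and 3303 in fibroblasts. Every miNSC and NSC library stood above every fibroblast library, by 1.22 ± 0.06 for miNSC over fibroblasts (adjusted p = 1.98e-11) and 1.10 ± 0.12 for NSC over 2.5-year fibroblasts (adjusted p = 4.72e-07). In bulk RNA, fewer cells that express a gene and less of its RNA per cell cannot be told apart.

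Cdk6 (chr5:3341485-3531008, plus strand), which like Cdk4 works with D-type cyclins, was at 0, 6 and 99 (lowest, median and highest) in miNSC, at 585 and 956 in NSC of passages 2 and 5, and at 226, 280 and 1176 in fibroblasts. Every miNSC library was below every NSC and fibroblast library. The difference was -5.57 ± 0.22 against fibroblasts (adjusted p = 3.22e-13), -3.74 ± 0.37 between the tail-tip lines and their own 1.0-year fibroblasts (adjusted p = 1.28e-07), and -6.42 ± 0.35 against NSC (adjusted p = 6.74e-10). NSC were not low, with a difference of 0.46 ± 0.40 from the 2.5-year fibroblasts (adjusted p = 0.330). Fam133b, the nearest gene of the table at 12825 bases from Cdk6, stood at 538 to 812 in miNSC, 676 and 691 in NSC and 594 to 734 in fibroblasts.

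The promoters of these kinases are shown because their RNA went opposite ways. Each window runs from 250 bases before to 50 after the start in RefSeq (GRCm38.p6), 5′ to 3′ on the strand of the gene, with capitals for matches to the GC box GGGCGG or the E-box CACGTG on either strand. The Cdk4 window (chr10:127063285-127063584, plus strand) and the Cdk6 window (chr5:3343643-3343942, plus strand) read as follows.
Cdk4: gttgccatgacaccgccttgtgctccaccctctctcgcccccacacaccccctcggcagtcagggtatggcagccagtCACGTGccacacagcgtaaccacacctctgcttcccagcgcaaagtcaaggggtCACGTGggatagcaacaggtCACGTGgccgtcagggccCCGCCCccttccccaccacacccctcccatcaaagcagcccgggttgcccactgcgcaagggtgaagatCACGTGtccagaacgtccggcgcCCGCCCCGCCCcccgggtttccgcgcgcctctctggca
Cdk6: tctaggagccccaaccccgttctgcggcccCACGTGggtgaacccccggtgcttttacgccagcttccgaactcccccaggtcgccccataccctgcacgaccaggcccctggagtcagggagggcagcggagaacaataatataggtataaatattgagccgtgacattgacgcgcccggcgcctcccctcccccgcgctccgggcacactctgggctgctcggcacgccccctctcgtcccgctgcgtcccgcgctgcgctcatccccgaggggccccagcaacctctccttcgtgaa
The Cdk4 window holds 4 E-boxes and 3 GC boxes, 2 of the latter overlapping by 1 base, and the Cdk6 window holds 1 E-box. Of 32851 windows in the same table, 7.15% hold at least 1 E-box and 8 hold at least 4. A match is a stretch of letters and does not show that a factor binds there.

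**Figure D2:**
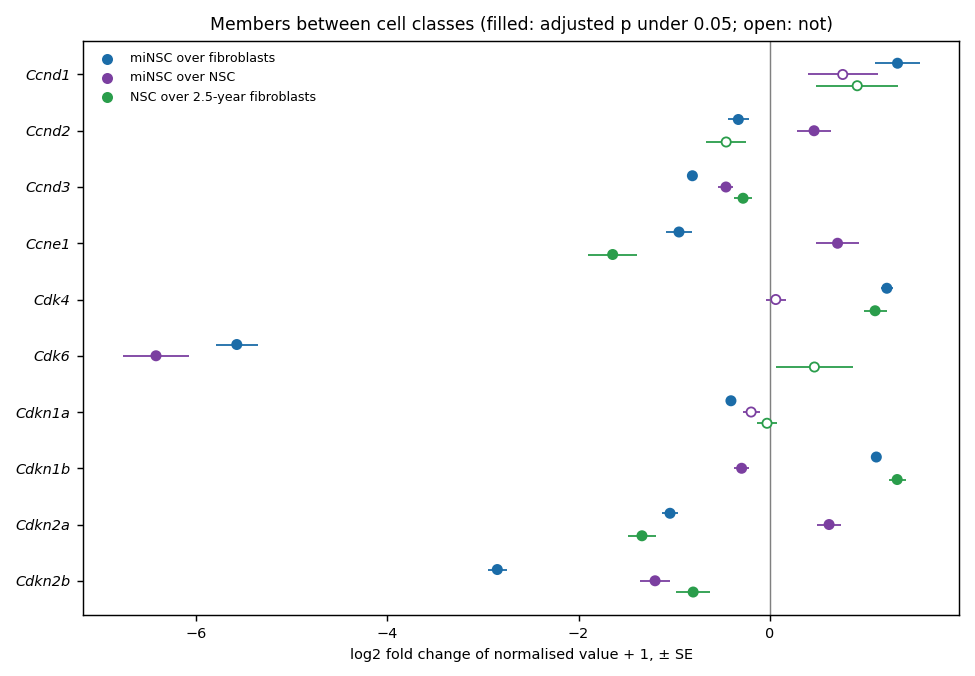
Log2 fold changes of value + 1 (horizontal axis, ± SE from limma) of the 10 genes for miNSC over fibroblasts, miNSC over NSC and NSC over 2.5-year fibroblasts; filled points have an adjusted p below 0.05. Cdk6 is lower in miNSC than in fibroblasts (-5.57) and in NSC (-6.42), whereas Cdk4 and Cdkn1b are higher in both miNSC and NSC than in fibroblasts.

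Of the CIP/KIP inhibitors, p27 (Cdkn1b, chr6:134920401-134925513, plus strand) was at 1336, 1701 and 2834 (lowest, median and highest) in miNSC, at 2520 and 2010 in NSC of passages 2 and 5, and at 742, 821 and 1002 in fibroblasts. No miNSC or NSC library overlapped the fibroblasts. Cdkn1b was higher in miNSC than in fibroblasts (1.11 ± 0.05, adjusted p = 1.05e-12), in the tail-tip lines than in 1.0-year tail-tip fibroblasts (1.57 ± 0.08, adjusted p = 2.69e-11), and in NSC than in 2.5-year fibroblasts (1.33 ± 0.09, adjusted p = 8.68e-10). Its nearest gene of the table at lower coordinates, Gpr19 at 21823 bases, was at 110 to 680 in miNSC, 337 and 693 in NSC and 18 to 42 in fibroblasts. Lockd, a non-coding RNA gene 3579 bases on the other side, was at 64 to 233 in miNSC, 32 and 108 in NSC and 46 to 108 in fibroblasts.

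The gene of p21 (Cdkn1a, chr17:29090976-29100727, plus strand), a p53 target, differed less between the classes. It was at 2224, 2931 and 5321 (lowest, median and highest) in miNSC, at 3066 and 4355 in NSC of passages 2 and 5, and at 3527, 3938 and 5539 in fibroblasts. It was lower in miNSC than in fibroblasts (-0.41 ± 0.06, adjusted p = 3.73e-06) with overlapping libraries, and lower in every tail-tip library than in both 1.0-year fibroblast libraries (-0.74 ± 0.09, adjusted p = 2.66e-06).

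The INK4 genes lie next to each other on chromosome 4, on the minus strand (Cdkn2a at chr4:89274471-89294653 and Cdkn2b at chr4:89306299-89311039), 11646 bases apart. Cdkn2b, which encodes p15, was at 21, 65 and 160 (lowest, median and highest) in miNSC and at 102 and 152 in NSC of passages 2 and 5. In fibroblasts it differed between the groups, at 60 and 51 in skin of 2.5 years, 834 and 868 in tail tip of 2.5 years, and 1263 and 1282 in tail tip of 1.0 year. The tail-tip lines were lower than the 1.0-year tail-tip fibroblasts by a log2 fold change of -4.77 ± 0.16 (adjusted p = 1.59e-13), and miNSC lower than all fibroblasts by -2.85 ± 0.10 (adjusted p = 4.94e-14), with the skin fibroblasts inside the miNSC range.

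Cdkn2a encodes p16 and, from an upstream start and another reading frame, p19Arf, which guards p53, and the deposited value per gene does not separate them. It was at 434, 1019.5 and 1848 (lowest, median and highest) in miNSC, at 542 and 697 in NSC of passages 2 and 5, and at 928 and 975 in skin, 2488 and 2601 in 2.5-year tail-tip and 3068 and 3048 in 1.0-year tail-tip fibroblasts. It was lower in miNSC than in fibroblasts (-1.05 ± 0.08, adjusted p = 3.00e-09) and in the tail-tip lines than in 1.0-year tail-tip fibroblasts (-1.88 ± 0.14, adjusted p = 2.62e-09), where no library overlapped. The skin fibroblasts, at 928 and 975, lay inside the miNSC range of 434 to 1848. No miNSC library was near 0: the lowest was 434, so Cdkn2a RNA was still measured in every line.

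The windows around the starts of this locus are shown because both genes were lower together in the tail-tip lines. They are from RefSeq (GRCm38.p6), on the minus strand, with capitals for the GC box GGGCGG, the CRE TGACGTCA and the E2F letters TTTCCCGC, TTTGGCGC, TTTCGCGC or TTTGCCGC, searched on both strands. The upstream Cdkn2a window is chr4:89294570-89294869, by the start of transcript Cdkn2a-202, the downstream one is chr4:89282143-89282442, at that of Cdkn2a-201, and the Cdkn2b window is chr4:89310983-89311282.
Cdkn2a upstream start: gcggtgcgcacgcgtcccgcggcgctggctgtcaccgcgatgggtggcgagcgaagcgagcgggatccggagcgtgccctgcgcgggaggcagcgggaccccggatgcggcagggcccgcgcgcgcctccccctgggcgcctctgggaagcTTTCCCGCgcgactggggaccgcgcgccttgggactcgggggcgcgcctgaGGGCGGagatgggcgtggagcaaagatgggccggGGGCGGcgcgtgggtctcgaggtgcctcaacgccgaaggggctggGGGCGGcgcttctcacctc
Cdkn2a downstream start: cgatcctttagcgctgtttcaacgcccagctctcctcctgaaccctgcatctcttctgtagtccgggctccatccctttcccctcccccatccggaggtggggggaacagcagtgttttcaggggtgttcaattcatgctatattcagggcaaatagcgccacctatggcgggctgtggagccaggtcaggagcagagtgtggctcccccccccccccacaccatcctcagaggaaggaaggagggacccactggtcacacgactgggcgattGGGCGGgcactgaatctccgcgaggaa
Cdkn2b: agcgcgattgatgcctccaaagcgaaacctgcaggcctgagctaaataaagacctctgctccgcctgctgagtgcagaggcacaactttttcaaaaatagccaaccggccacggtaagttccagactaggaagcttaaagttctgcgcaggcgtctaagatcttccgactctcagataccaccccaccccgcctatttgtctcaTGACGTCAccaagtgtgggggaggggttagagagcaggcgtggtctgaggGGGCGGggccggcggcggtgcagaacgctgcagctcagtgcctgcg
The upstream Cdkn2a window holds 1 E2F match and 3 GC boxes, the downstream one 1 GC box, and the Cdkn2b window 1 CRE and 1 GC box. Of all 32851 windows 2.26% hold an E2F match, 35.7% a GC box and 1.79% a CRE. The windows differ in base composition as well, with 77% G or C and 45 CpG steps upstream, 60.3% and 12 downstream, and 57.7% and 18 at Cdkn2b, against medians of 52.7% and 7 over the table.

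**Figure D3:**
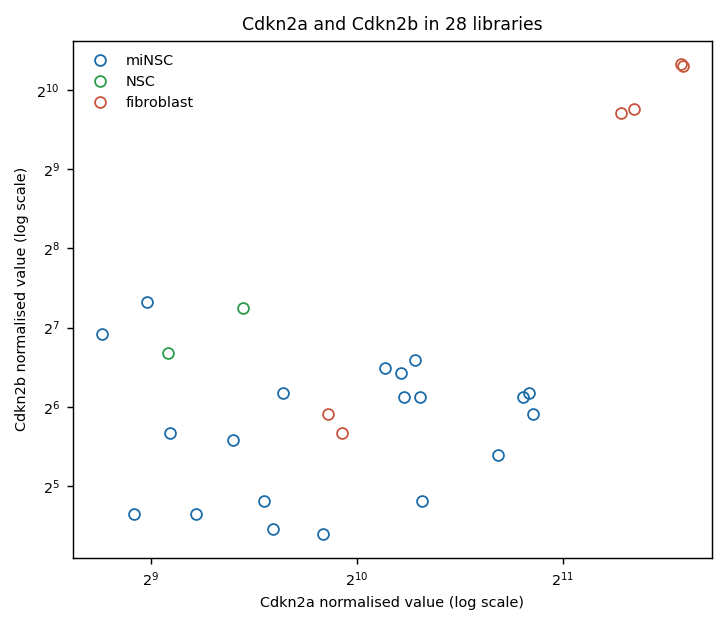
Each point is 1 library, with the normalised value of Cdkn2a on the horizontal and of Cdkn2b on the vertical axis, both on log scales. The 4 tail-tip fibroblast libraries stand apart at the upper right (Cdkn2b at 834 to 1282), while the 2 skin fibroblast libraries lie among the miNSC at a Cdkn2b of 51 and 60.

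Set against NSC, 3 of the 10 genes were higher in miNSC (Ccnd2, Ccne1 and Cdkn2a) and 4 lower (Ccnd3, Cdk6, Cdkn1b and Cdkn2b), but the NSC libraries of passages 2 and 5 were far apart. Without the library of passage 2 the difference of Ccnd2 turned to -0.065 and that of Cdk4 to -0.28 (adjusted p = 0.00329), and Ccne1 (0.18), Cdkn1b (-0.13) and Cdkn2a (0.44) were no longer called, while Cdkn1a was called lower in miNSC (-0.45, adjusted p = 0.00036). Without the library of passage 5 Ccnd1 was called higher in miNSC (2.0, adjusted p = 4.42e-06) and so was Cdk4 (0.40, adjusted p = 8.98e-05). Cdk6, Ccnd3 and Cdkn2b kept their calls without either. In 18 of the 22 fits that left out 1 library Ccnd2 kept its sign and lost its call. Of 20 S phase genes 12 were higher in miNSC and 0 lower (median 1.34, against 0.03 for all tested genes), but without the library of passage 2 limma called 0 higher and 2 lower (median -0.28, with 2 higher and 4 lower at an unadjusted p under 0.05), and without that of passage 5 all 20 were higher (median 2.60). The astrocyte markers summed to 380 to 11954 in miNSC and 30114 to 35805 in NSC. Their part in these differences was not tested. NSC came from 2.5-year mice and miNSC from embryonic or 1.0-year fibroblasts, so cell class, age and animal cannot be told apart here. The fit gives all groups 1 spread, which is too small for NSC, so the p-values of miNSC over NSC, and of NSC over 2.5-year fibroblasts, are too small as well. In NSC over 2.5-year fibroblasts Ccnd1 was called without passage 2 (2.15, adjusted p = 2.09e-06, against 0.91 with both) and so was Cdkn1a (0.22, adjusted p = 0.0318). Without passage 5 Ccnd2 was called lower in NSC (-0.98, adjusted p = 7.76e-05), as was Cdkn1a (-0.28, adjusted p = 0.00757), and the call of Ccnd3 was lost (-0.18).

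Lists of related genes give the setting of these differences, each as counts and a median log2 fold change beside 0.10 for all tested genes between miNSC and fibroblasts. Of 20 E2F target and S phase genes 16 were higher in miNSC than in fibroblasts and 0 lower (median 0.91), among them the replication helicase gene Mcm7, at a mean of 2398 in miNSC and 822.3 in fibroblasts (1.47 ± 0.13, adjusted p = 3.09e-08). The median over these 20 genes, each centred on its mean over all libraries, was -0.08 in both skin fibroblast libraries. It was -1.03 and -1.10 in tail-tip fibroblasts of 1.0 year, and -0.82 and -0.76 in those of 2.5 years. The KF line of Sox2-GFP embryos lay below all of these, at -1.38 and -1.34. Tail-tip 4F at passage 18 was at -0.62 and -1.64, on either side of the tail-tip fibroblasts. All other miNSC libraries, at 0.02 to 0.93, lay above every fibroblast library. Of 13 Rb and E2F genes 8 were higher and 2 lower (median 0.74), among them Rb1 (0.97), the protein that Cdk4 phosphorylates. Of 12 further G1 and S cyclins, kinases and inhibitors 5 were higher and 4 lower, and Cdk2, the partner of cyclin E, was at a mean of 1363 in miNSC and 452 in fibroblasts (1.45, adjusted p = 2.01e-08).

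Of 12 Polycomb genes known to act on the INK4 locus, 10 were higher in miNSC than in fibroblasts and 1 lower (median 1.03), with Phc1 at 2.28, Ezh2 at 1.96, Kdm2b at 1.77 and Bmi1 at 0.95. In NSC over 2.5-year fibroblasts 8 of the 12 were higher and 2 lower (median 1.14, against -0.01 for all tested genes). Of 21 p53 pathway genes 7 were higher and 11 lower in miNSC than in fibroblasts (median -0.36). Of 11 genes for the turnover of G1 regulators 7 were higher and 4 lower (median 0.32). Of 15 tested FoxO, TGF beta and mitogen genes 6 were higher and 4 lower (median 0.08), and Tgfbr2, a receptor through which TGF beta is known to raise p15, was lower (-2.87, adjusted p = 4.50e-16). The part of any of these lists or genes in the differences of the 10 members was not tested.

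Within the miNSC, Ccnd1, Ccnd2 and Ccne1 were low in the same 3 groups, the Sox2-GFP embryonic KF line, the tail-tip KMF line and the tail-tip 4F line at passage 18. Cyclin E1 stood at 57 and 68 in the KF line, 108 and 126 in the KMF line and 86 and 49 at passage 18, against 152 to 437 in the other 7 groups. Cyclin D2 stood at 676 and 794, 1065 and 1048, and 1994 and 2106 in those 3 groups, against 3000 to 12122 in the other 7. These were also the groups with the lowest S phase genes: the median over the 20 listed genes, each centred on its mean over all libraries, was -1.38 and -1.34 in the KF line, 0.02 in both KMF libraries and -0.62 and -1.64 at passage 18, against 0.45 to 0.93 in the others.

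Over the 10 miNSC groups that median had a Pearson correlation of 0.96 with Ccne1 (Spearman 0.92), 0.85 with Ccnd2, 0.72 with Ccnd1 and 0.72 with Cdkn2a. It was -0.58 with Cdkn1b, 0.54 with Cdk4 and 0.13 with Cdk6. Without the 2 groups farthest from the middle the values were 0.95 for Ccne1, 0.96 for Ccnd2, 0.81 for Ccnd1, 0.77 for Cdkn2a, -0.87 for Cdkn1b and 0.31 for Cdk4. These are descriptions over few points, of which 2 are passages of 1 line and all share 1 normalisation, so no p is given.

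**Figure D4:**
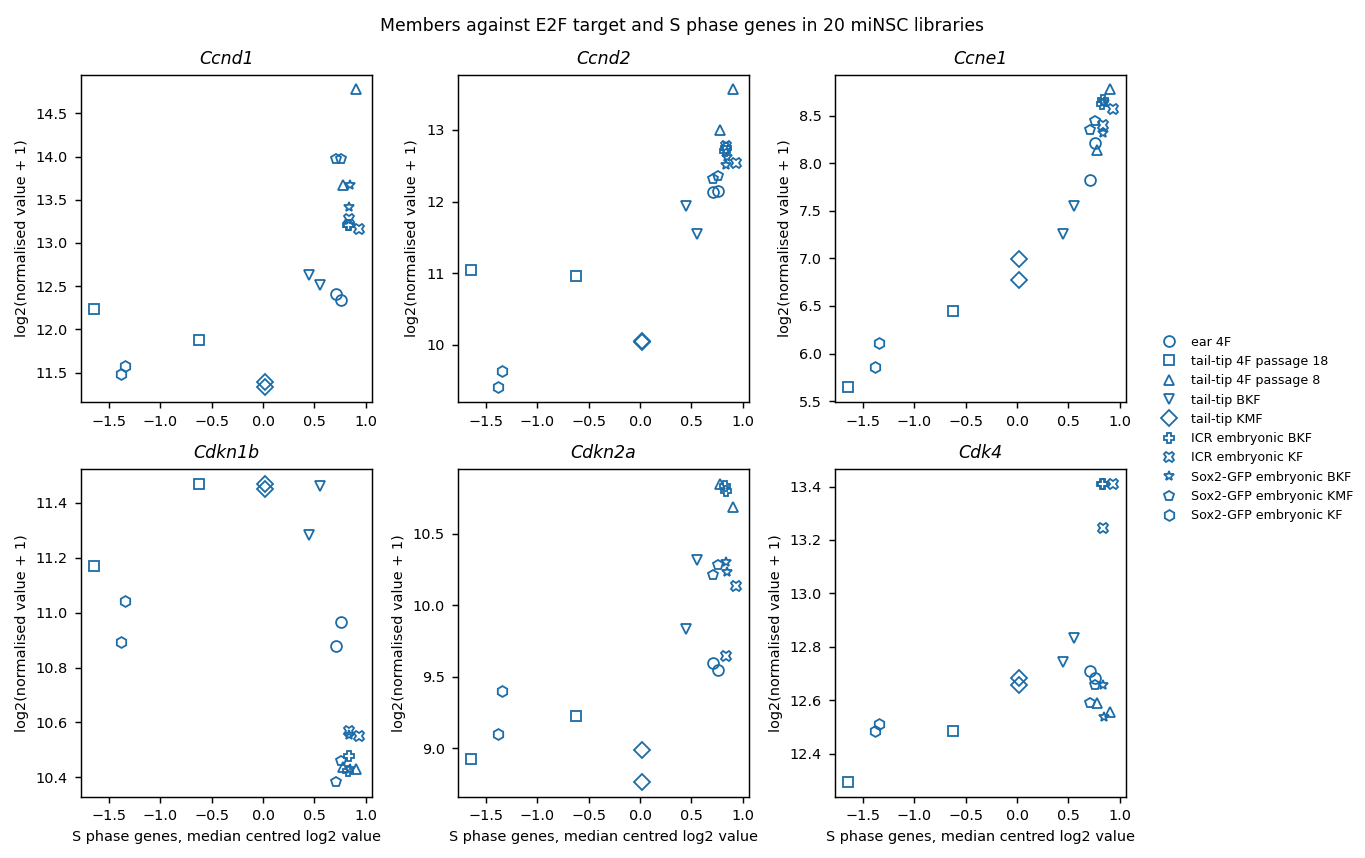
Each point is 1 of the 20 miNSC libraries, with the centred median log2 value of 20 S phase genes on the horizontal and log2(normalised value + 1) of 1 gene on the vertical axis; symbols mark the 10 groups. Ccne1 climbs with the S phase genes over the whole range (r = 0.96 over group means), whereas Cdk4 lies at 9706 to 10890 in the ICR lines and at 5028 to 7288 in all Sox2-GFP lines.

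In Sox2-GFP embryonic cells (BKF over KF) cyclins D1, D2 and E1 were higher in the BKF line than in the KF line. Cocktail and picked line cannot be told apart, since each group is 1 line as far as the labels say. Ccnd1 was at 10890 and 13042 in the BKF line, against 2855 and 3047 in the KF line. Ccnd2 was at 5846 and 6318, against 676 and 794, and Ccne1 at 317 and 398, against 57 and 68. The log2 fold changes were 2.01 ± 0.50 (adjusted p = 0.00433), 3.05 ± 0.24 (adjusted p = 1.17e-07) and 2.49 ± 0.30 (adjusted p = 8.48e-06). In all 7 of the 10 genes were called, 5 higher and 2 lower (37.7% of tested genes called, 19.2% higher and 18.5% lower). The libraries of the lines did not overlap for any of the 10 (71.7% of tested genes did not).

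Both inhibitors with a p53 link were higher in the same BKF cells, Cdkn1a (4471 and 4355 in BKF, against 2264 and 2318 in KF, 0.95 ± 0.12) and Cdkn2a (1264 and 1200, against 546 and 676, 1.02 ± 0.17), while Cdkn1b was lower (1504 and 1378, against 1902 and 2106, -0.48 ± 0.10). Cdk4 did not pass the test (0.10 ± 0.14). Cdk6 was at 1 and 0 in BKF, against 4 and 4 in KF, and its call (-1.82) was lost with a pseudocount of 10 (-0.42, adjusted p = 0.267) and without the BKF library at 0 (-1.32). All 20 S phase genes were higher in BKF (median 2.25), and all 5 astrocyte markers lower (summed 1212 and 1242 in BKF, against 11814 and 11954 in KF), and their part in these differences was not tested.

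KMF over KF in the same cells used the same KF libraries and gave 8 calls, 6 higher and 2 lower (39.1% of tested genes called, 19.9% higher and 19.2% lower), with 9 of the 10 genes not overlapping (71.1% of tested genes). Ccnd1 was at 16122 in both KMF libraries (2.45 ± 0.50), Ccnd2 at 5088 and 5242 (2.82 ± 0.24), Ccne1 at 326 and 348 (2.42 ± 0.30), Cdkn1a at 5321 in both (1.22 ± 0.12) and Cdkn2a at 1187 and 1244 (1.00 ± 0.17). Cdkn2b was higher as well (86 and 96 in KMF, against 51 and 48 in KF, 0.86 ± 0.21), Cdkn1b lower (-0.54 ± 0.10), and Ccnd3 lower by a small amount (-0.37 ± 0.11) that was no longer called without KMF library 1 (-0.27) or KF library 2 (-0.35). Of 20 S phase genes 18 were higher in KMF (median 1.90), and the astrocyte markers summed to 2242 and 2105 in KMF, against 11814 and 11954 in KF. Of these 5 markers 4 were lower and S100b was higher (549 in KMF, against 317.5 in KF, on average), and Gfap made up most of the difference in the sum (168.5 in KMF, against 8316.5 in KF). Between BKF and KMF only Cdk6 was called, and lower (10.3% of tested genes called, 4.96% higher and 5.3% lower), and 5 of the 10 genes did not overlap (60.8% of tested genes). Cdk6 was at 1 and 0 in BKF, against 4 and 6 in KMF, and that call too was lost with a pseudocount of 10 (-0.51, adjusted p = 0.302) and without BKF library 2 (-1.56) or KMF library 2 (-1.82).

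In ICR embryonic cells BKF over KF gave 2 calls, both higher (13.1% of tested genes called, 6.69% higher and 6.42% lower), and 5 of the 10 genes did not overlap (55.2% of tested genes). Ccnd3 was at 832 and 806 in BKF, against 550 and 557 in KF (0.56 ± 0.11, adjusted p = 0.00141), and Cdkn2a at 1787 and 1829, against 798 and 1126 (0.93 ± 0.17, adjusted p = 0.00133). The cyclins that separated the Sox2-GFP lines did not pass the test: Ccnd1 was at 9430 in both BKF libraries, against 9950 and 9148 in KF (-0.02 ± 0.50), Ccnd2 at 6859 and 6701, against 6986 and 5950 (0.07 ± 0.24), and Ccne1 at 404 and 392, against 338 and 378 (0.15 ± 0.30). Of the 20 S phase genes 0 were called by limma in ICR cells, and 0 had an unadjusted p under 0.05 (median -0.02). Of 12 fibroblast markers 7 were lower in BKF and 1 higher (summed 846 and 735 in BKF, against 5539 and 4844 in KF), and of 12 neural stem cell markers 4 were higher and 0 lower. Their part in the differences of Ccnd3 and Cdkn2a was not tested.

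The difference of BKF over KF in ICR minus that in Sox2-GFP cells was called for 5 of the 10 genes, 1 higher and 4 lower (32.1% of tested genes called, 15.8% higher and 16.4% lower). It was -2.98 ± 0.34 for Ccnd2 (adjusted p = 6.26e-06), -2.34 ± 0.42 for Ccne1 (adjusted p = 0.000484), -1.28 ± 0.17 for Cdkn1a (adjusted p = 2.67e-05), 0.76 ± 0.15 for Ccnd3 and -2.03 ± 0.70 for Ccnd1 (adjusted p = 0.0365). The Ccnd1 call was lost whichever of the 8 libraries was left out. Cdkn2a was higher in BKF in both strains, with a difference of differences of -0.09 ± 0.24 (adjusted p = 0.836). Strain and picked line cannot be told apart, since each group is 1 line as far as the labels say.

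ICR over Sox2-GFP lines, taken over BKF and KF, gave 8 calls, 5 higher and 3 lower (38.4% of tested genes called, 19.3% higher and 19.1% lower), and 3 did not overlap (19.9% of tested genes). Cdk4 was at 10890, 10890, 9706 and 10890 in ICR, against 6466, 5950, 5740 and 5846 in Sox2-GFP libraries (0.82 ± 0.10, adjusted p = 8.86e-06), with no overlap. Ccnd3 was lower in every ICR library (-0.48 ± 0.07). Cdk6 was higher in ICR libraries without overlap, but low in both (6 to 15, against 0 to 4, 1.86). The further calls for Ccnd2 (1.65 ± 0.17) and Ccne1 (1.33 ± 0.21) came with overlapping libraries, since the Sox2-GFP BKF line stood beside the ICR lines. With overlap too, Cdkn2a was higher (0.60), and Cdkn1a (-0.35) and Cdkn1b (-0.22) were lower by small amounts. Of 20 S phase genes 15 were higher in ICR lines and 0 lower (median 1.09). The Sox2-GFP BKF line stood beside the ICR lines here too, with a centred median of 0.83 and 0.85, against 0.82 to 0.93. The Sox2-GFP KF line was at -1.38 and -1.34. The part of the S phase genes was not tested. With group means as samples limma called 0 of the 10 genes, and 1 had an unadjusted p under 0.05 (0.424% of tested genes called).

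**Figure D5:**
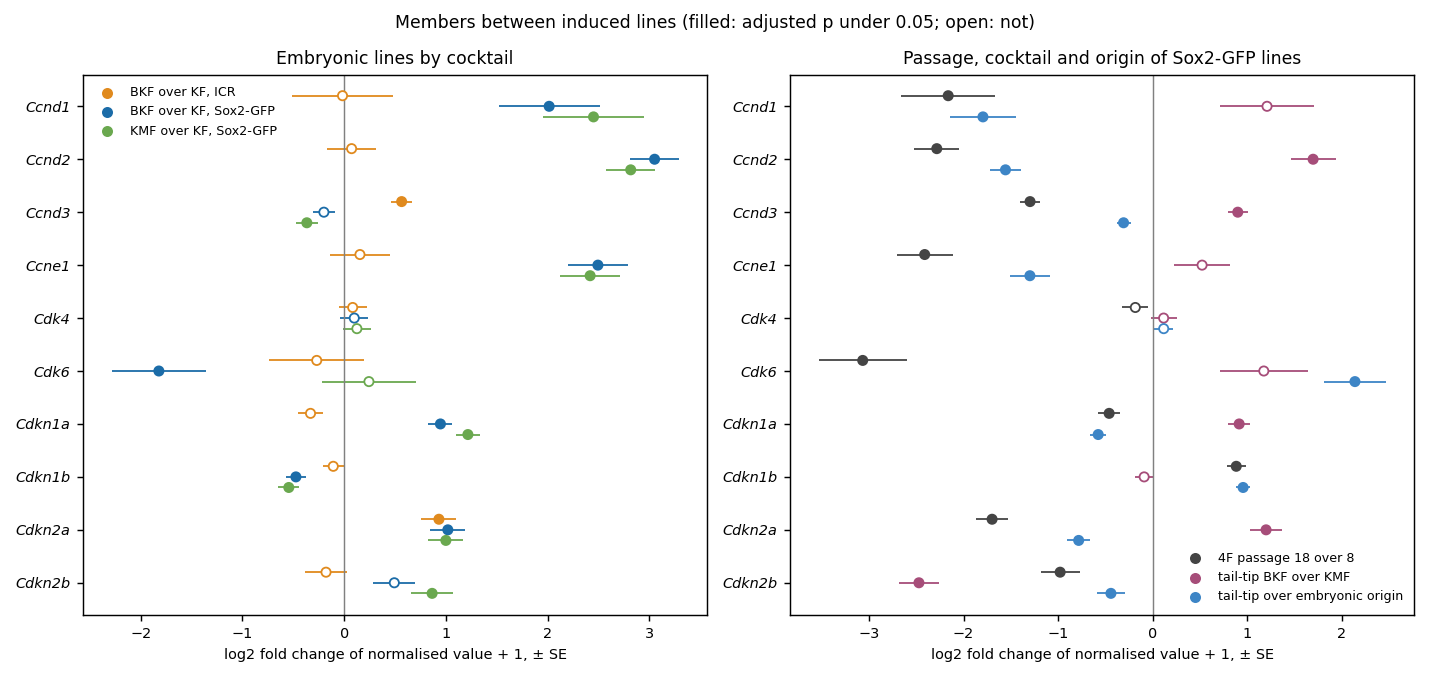
Log2 fold changes of value + 1 (horizontal axis, ± SE from limma) of the 10 genes between induced lines, by cocktail in embryonic cells (left) and by passage, cocktail and origin in Sox2-GFP lines (right); filled points have an adjusted p below 0.05. Ccnd1, Ccnd2 and Ccne1 differ by -0.02 to 0.15 between the ICR BKF and KF lines and by 2.01 to 3.05 between the Sox2-GFP ones, and Cdkn1b runs against them in the passage and origin comparisons.

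Tail-tip over embryonic origin was compared with the BKF and KMF cocktails of Sox2-GFP cells, and 9 of the 10 genes were called, 2 higher and 7 lower (33% of tested genes called, 15.8% higher and 17.2% lower), and 5 did not overlap (24.3% of tested genes). Ccnd1 was at 6318 and 5846 (BKF) and 2683 and 2568 (KMF) in tail-tip lines, against 10890 and 13042 (BKF) and 16122 in both (KMF) in embryonic lines, a difference of -1.79 ± 0.35 (adjusted p = 0.000854). Ccne1 was at 108 to 186 in tail-tip libraries, against 317 to 398 in embryonic ones (-1.30 ± 0.21), and Ccnd2 at 1048 to 3924, against 5088 to 6318 (-1.56 ± 0.17). The p27 gene went the other way, at 2488 to 2834 in tail-tip libraries, against 1336 to 1504 in embryonic ones (0.96 ± 0.07, adjusted p = 7.48e-08), and the libraries of the origins did not overlap for these 4 genes.

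Cdk6 was higher in the tail-tip libraries (7 to 22, against 0 to 6 in embryonic ones, 2.14 ± 0.33), also without overlap but low in both, and Cdkn1a (-0.58 ± 0.08), Cdkn2a (-0.78 ± 0.12) and Ccnd3 (-0.31 ± 0.07) were lower with overlap. Cdkn2b was called lower (-0.44 ± 0.15, adjusted p = 0.0294) while its mean was 82.5 in tail-tip and 80.5 in embryonic libraries, because the tail-tip cocktails lay on either side. That call was lost without any of 5 of the 8 libraries (adjusted p 0.0663 to 0.135) and with a pseudocount of 10 (-0.33). The labels give no passage for these lines, so origin, passage and picked line cannot be told apart. Each side had 2 lines, and with group means as samples limma called 0 of the 10 genes, with 3 at an unadjusted p under 0.05 (0.381% of tested genes called). Of 20 S phase genes 2 were lower in the tail-tip lines, Mcm7 (-0.59 ± 0.20) and Mcm4 (-0.82 ± 0.29), and the median was -0.42, against 0.01 for all tested genes.

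Among the tail-tip lines BKF over KMF gave 5 calls, 4 higher and 1 lower (13% of tested genes called, 6.75% higher and 6.22% lower), and 9 of the 10 genes did not overlap (54.9% of tested genes). Cdkn2b was lower in BKF (21 and 28 in BKF, against 121 and 160 in KMF, -2.47 ± 0.21, adjusted p = 9.18e-07), whereas its neighbour Cdkn2a was higher (913 and 1274, against 434 and 506, 1.20 ± 0.17, adjusted p = 0.000242). The INK4 genes thus went opposite ways between these lines, without overlap, but neither was called in a fit of these 4 libraries alone (adjusted p = 0.0686 for Cdkn2b and 0.130 for Cdkn2a by limma). Ccnd2 (1.70 ± 0.24), Ccnd3 (0.90 ± 0.11) and Cdkn1a (0.92 ± 0.12) were higher in BKF, and Cdk4, Cdkn1b, Cdk6, Ccnd1 and Ccne1 did not pass the test. Ccnd1 was at 6318 and 5846 in BKF, against 2683 and 2568 in KMF. The fit of these 4 libraries alone called Ccnd1 higher in BKF (1.21, adjusted p = 0.0310 by limma). That fit called 2 of the 10 genes, with 2.64% of tested genes, and did not call Ccnd2 (adjusted p = 0.0636) or Ccnd3 (adjusted p = 0.116). Of 20 S phase genes limma called 0, and 1 had an unadjusted p under 0.05 (median 0.41).

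BKF minus KMF in tail-tip cells differed from BKF minus KMF in embryonic cells for 6 of the 10 genes, 5 higher and 1 lower (13.1% of tested genes called, 6.77% higher and 6.33% lower). The difference of differences was -2.10 ± 0.29 for Cdkn2b (adjusted p = 0.000202), 1.18 ± 0.24 for Cdkn2a, 1.19 ± 0.17 for Cdkn1a, 1.46 ± 0.34 for Ccnd2, 0.73 ± 0.15 for Ccnd3 and 3.24 ± 0.66 for Cdk6. The Cdk6 value rests on embryonic libraries at 0 to 6 and was 1.21 (adjusted p = 0.0513) with a pseudocount of 10.

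The tail-tip 4F line at passage 18 over passage 8 gave 9 calls, 1 higher and 8 lower (35.1% of tested genes called, 17.5% higher and 17.6% lower), and the passages did not overlap for any of the 10 genes (68.8% of tested genes did not overlap). Ccnd1 was at 3772 and 4838 at passage 18, against 28060 and 13042 at passage 8 (-2.16 ± 0.50, adjusted p = 0.00294). Ccnd2 was at 1994 and 2106, against 12122 and 8216 (-2.28 ± 0.24), Ccnd3 at 389 and 443, against 1076 and 969 (-1.30 ± 0.11), and Ccne1 at 86 and 49, against 437 and 280 (-2.41 ± 0.30, adjusted p = 1.73e-05). All 4 cyclins were thus lower in both libraries of the later passage.

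Of the kinases, Cdk6 was at 13 and 5 at passage 18, against 99 and 58 at passage 8 (-3.07 ± 0.47, adjusted p = 0.000113), passage 8 having the highest Cdk6 values of all miNSC groups. Cdk4 did not pass the test (5740 and 5028, against 6031 and 6166, -0.18 ± 0.14). Cdkn1b was higher at passage 18 (2834 and 2304, against 1378 and 1388, 0.89 ± 0.10, adjusted p = 8.65e-06). Cdkn2a was lower (596 and 484, against 1648 and 1848, -1.70 ± 0.17, adjusted p = 2.77e-06), as were Cdkn2b (25 in both, against 42 and 60, -0.98 ± 0.21) and Cdkn1a (2624 and 2942, against 4242 and 3442, -0.46 ± 0.12).

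At passage 18, 17 of 20 S phase genes were lower and 0 higher (median -2.00, against 0.03 for all tested genes), and all 5 astrocyte markers were higher (summed 4312 and 8945 at passage 18, against 380 and 474 at passage 8). The part of either in the member differences was not tested. Without passage 8 library 1, where Ccnd1 was 28060, Ccnd1 was at -1.61 (adjusted p = 0.0536) and Cdkn1a at -0.31 (adjusted p = 0.108), and without passage 18 library 1 Cdkn1a was at -0.38 (adjusted p = 0.0613). In a fit of only these 4 libraries limma made 3 of the 9 calls (Ccnd2, Ccnd3 and Cdkn2a), and 13.3% of tested genes were called. The calls lost there were Ccnd1 (adjusted p = 0.0865), Ccne1 (0.0653), Cdk6 (0.0730), Cdkn1b (0.0511), Cdkn2b (0.0966) and Cdkn1a (0.142). The line was sampled at each passage as 2 libraries, and passage and culture day cannot be told apart.

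The 4F line was set against the BKF and KMF lines, and the ear 4F line against it, with both passages averaged, and most of these values turned on the passage. 4F over BKF gave 4 calls, 1 higher and 3 lower (21.3% of tested genes called, 11% higher and 10.2% lower), and 2 genes did not overlap (24.1% of tested genes). 4F over KMF gave 8, 6 higher and 2 lower (26.7%, 13.9% higher and 12.7% lower), and 5 did not overlap (32.5%). The ear line over tail-tip 4F gave 3, 1 higher and 2 lower (28.6%, 14.1% higher and 14.5% lower), and 1 did not overlap (35.1%). With passage 8 alone the calls were 7 for 4F over BKF (26.1% of tested genes called) and 8 for the ear line (27.2%). With passage 18 alone they were 2 for 4F over KMF (19.1%) and 5 for the ear line (34.6%). Cdkn2b was lower in 4F than in KMF at both passages (25 to 60 in 4F, against 121 and 160 in KMF, -1.94 ± 0.18, adjusted p = 9.35e-07).

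The ear 4F line had Ccnd1 at 5162 and 5430, Ccne1 at 295 and 225, Cdk6 at 6 and 4, Cdkn1b at 2000 and 1882 and Cdkn2b at 28 and 22. Its Cdk6 lay below both libraries of tail-tip 4F at passage 8 and overlapped those of passage 18 (-2.17 ± 0.40 against their mean, adjusted p = 0.000797, and -0.63 against passage 18 alone, adjusted p = 0.337). Its calls for Ccne1 (0.77 ± 0.26) and Cdkn2b (-0.50 ± 0.18) were lost in 4 and 5 of the 6 fits that left out 1 library.

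In fibroblasts, 2.5-year over 1.0-year tail tip gave 2 calls, both lower (11% of tested genes called, 5.63% higher and 5.41% lower), and 9 of the 10 genes did not overlap (62.4% of tested genes). The calls were Ccnd3 (1046 and 966, against 1384 and 1438, -0.49 ± 0.11, adjusted p = 0.00689) and Cdkn1a (3952 and 3924, against 5321 and 5539, -0.46 ± 0.12, adjusted p = 0.0188). The Cdkn1a call was lost whichever of the 4 libraries was left out, and that of Ccnd3 without the second library of either age. Neither INK4 gene was higher in the older cells: Cdkn2a was at 2488 and 2601, against 3068 and 3048 at 1.0 year (-0.27 ± 0.17, adjusted p = 0.379), and Cdkn2b at 834 and 868, against 1263 and 1282 (-0.58 ± 0.21, adjusted p = 0.0893). Age, animal and culture cannot be told apart here, and the labels give no passage for the fibroblasts. In a fit of these 4 libraries alone 7 of the 10 genes were called, as were 14.9% of tested genes. Beside Ccnd3 and Cdkn1a these were Ccnd1, Ccnd2, Cdkn2a and Cdkn2b, all lower at 2.5 years, and Cdk4, higher (0.12). Ccnd1 was at 2106 in both 2.5-year libraries, against 4568 and 4522 at 1.0 year (-1.11, adjusted p = 0.00153 by limma). In that fit the adjusted p was 0.0326 for Ccnd2 (-0.49), 0.0381 for Cdkn2a and 0.0163 for Cdkn2b.

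Skin over tail-tip fibroblasts of 2.5 years gave 5 calls, 2 higher and 3 lower (26.6% of tested genes called, 12% higher and 14.5% lower), and none of the 10 genes overlapped (69.5% of tested genes). Cdkn2b was lower in skin by -3.92 ± 0.21 (adjusted p = 4.69e-10) and Cdkn2a by -1.42 ± 0.17 (adjusted p = 1.08e-05), at the values given above. Cdk6 was higher in skin (1176 and 1076, against 231 and 294, 2.11 ± 0.47, adjusted p = 0.00290), as was Ccnd3 (1458 and 1504, against 1046 and 966, 0.56 ± 0.11), and Ccnd2 was lower (2624 and 2372, against 5242 and 4928, -1.03 ± 0.24, adjusted p = 0.00413). Tissue and animal cannot be told apart here.

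By the likeness of the 14 group means of log2(value + 1), Ccne1 was nearest to Ipo4 (r = 0.99), Relt (0.95) and Mtrr (0.95), Ccnd1 to Ppid (0.95), and Ccnd2 to Qsox2 (0.95). Cdk4 was nearest to Yeats4 (0.97), Cdkn1b to Zfp40 (0.97), Cdk6 to 1700048O20Rik (0.945), Cdkn2b to Faf2 (0.92) and Cdkn2a to Eif3a (0.92). The nearest gene to Ccnd3 was Plk3 (0.89) and to Cdkn1a Slc9a3r2 (0.85). These are the highest correlations over 14 points among the tested genes whose group means ranged by at least 1 on the log2 scale. They are given as descriptions, with no p.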

How the data were processed

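The expression of 17295 genes was measured by RNA-seq in 28 libraries of 14 groups. The deposited values are whole-number scores that the authors normalised by a step not given in the sources used here: every library has the same highest value, 92914, and almost the same total. RSEM, Bowtie2 and the build mm10 are named, per the submitters' processing notes, with no role or order. The values were therefore not treated as counts. Genes with a mean of at least 10 were kept, 1 was added, log2 was taken, and limma 3.58.1 with a mean-variance trend (R 4.3.3) was fitted to all 14 groups at once. P-values were adjusted by Benjamini-Hochberg over all tested genes, and the fold changes are on the log2(value + 1) scale, which understates the change of low genes. The procedure was tested on simulated data with changes in few genes and, for each gene, the same spread in all groups. Such data cannot show how it behaves with the wider spread of NSC or where most genes are called.

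Depth is unknown, so no counting error is given. The members and the gene lists were chosen with earlier results of these data known. The genes named as most alike were the 3 with the highest correlation of group means for each member, of which the text gives 1 to 3. They were sought among the tested genes whose group means ranged by at least 1 on the log2 scale. List genes were named among the 4 with the lowest adjusted p in each list. Replicate numbers are shared between groups in the labels, but same-numbered libraries did not deviate together. Alternatives were other pseudocounts and filters, other scalings, each comparison fitted alone, group means as samples, each passage alone, a replicate block, and leaving out each library. The S phase genes without each NSC library were added after seeing the data. Promoter windows came from RefSeq (GRCm38.p6), where 8 of the 10 members had an entry, and gene positions from GENCODE (GRCm38). All columns of the table were mapped to a sample.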

Additional observations from a re-analysis of the deposited data

Results flagged for a closer look

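In 11 cases the difference between lines of 2 cocktails was unequal in 2 sets of cells by the test of the difference itself, limma's interaction term with adjusted p below 0.05. Each group is 1 line as far as the labels say, so cocktail, cell source and picked line cannot be told apart. The difference of BKF over KF in ICR minus that in Sox2-GFP embryonic cells was -2.98 for Ccnd2, -2.34 for Ccne1, -2.03 for Ccnd1, -1.28 for Cdkn1a and 0.76 for Ccnd3, on the log2 scale. The Ccnd1 value was no longer called when any of the 8 libraries was left out. In the same term 11 of 20 S phase genes were called, all lower, and 4 of 5 astrocyte markers, all higher, and their part was not tested.

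The difference of BKF over KMF in tail-tip minus that in embryonic Sox2-GFP cells was 3.24 for Cdk6, -2.10 for Cdkn2b, 1.46 for Ccnd2, 1.19 for Cdkn1a, 1.18 for Cdkn2a and 0.73 for Ccnd3. The Cdk6 value rests on libraries at 0 to 22 and was 1.21 with a pseudocount of 10. Of 20 S phase genes 0 were called by limma in this term, and 0 had an unadjusted p under 0.05.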

How the results depend on the processing

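The 2 libraries of a group, the passages of NSC and the single line per group limit every comparison, and depth is unknown. Where leaving out a library left 1 in its group, that library was assumed to vary like the other groups. Of the counts of members called, 136 with a library left out and 148 under the other settings stayed within 1.5 times the reported count, 10 and 13 were lower and 0 and 5 higher. Leaving out 1 library gave 1 to 3 calls for ear over tail-tip 4F, 0 to 1 for BKF over KMF in Sox2-GFP embryonic cells and 0 to 1 for 2.5-year over 1.0-year fibroblasts.

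The member calls below are given with the share of all tested genes called. With only the groups compared in the fit, the calls were 1 for BKF over KF in ICR cells (10.4%), 2 for BKF over KMF in tail-tip cells (2.64%) and 0 for 4F over BKF (6.46%, with 4 members at an unadjusted p under 0.05). They were 5 for 4F over KMF (22.9%), 3 for passage 18 over 8 (13.3%) and 1 for ear over tail-tip 4F (25.0%). In fibroblasts they were 7 for 2.5-year over 1.0-year (14.9%) and 9 for skin over tail tip (30.7%). With group means as samples the calls were 5 for miNSC over fibroblasts (53%), 1 for tail-tip miNSC over fibroblasts (27.2%) and 0 for miNSC over NSC (0.873%, with 1 member at an unadjusted p under 0.05). They were 0 for tail-tip over embryonic origin (0.381%, with 3 such members) and 0 for ICR over Sox2-GFP (0.424%, with 1). With passage 8 alone the calls were 7 for 4F over BKF (26.1%) and 8 for the ear (27.2%), and with passage 18 alone 2 for 4F over KMF (19.1%) and 5 for the ear (34.6%). With a pseudocount of 10 there were 0 for BKF over KMF in embryonic cells, with 1 member at an unadjusted p under 0.05 and 1814 tested genes called.

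Directions turned in these cases. Without 1 of the NSC libraries (passage 2 or 5) miNSC over NSC ran from -0.065 to 0.987 for Ccnd2 and from -0.28 to 0.40 for Cdk4. Without passage 2 Cdkn1a was at 0.22 in NSC over fibroblasts. With passage 8 alone, Ccnd3 (0.16), Ccne1 (1.05) and Cdkn2a (0.69) turned in 4F over BKF, and Ccnd3 (-0.50) and Ccne1 (-0.44) in ear over tail-tip. With passage 18 alone, Ccnd2 (-0.74) turned in 4F over BKF, Ccnd3 (-0.24) in 4F over KMF, and Ccnd2 (1.13), Cdkn1b (-0.40) and Cdkn2a (0.50) in ear over tail-tip. The cause was not tested.

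Over all tested genes, group means as samples gave 142 calls for miNSC over NSC against 6610, 4427 against 10748 for tail-tip miNSC over fibroblasts, 62 against 5377 for origin and 69 against 6242 for ICR over Sox2-GFP. Only the groups compared gave 1052 against 3460 for 4F over BKF, 430 against 2110 for tail-tip BKF over KMF and 2169 against 5716 for passage.

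Same-numbered libraries did not pair, with correlations of -0.0547 to 0.0709 over 78 pairs of groups. With the replicate block the calls for miNSC over NSC were 6, Ccnd2 being lost (adjusted p = 0.0517), and no other count of member calls changed.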
